A study of Homo sapiens with 3 samples.

Results

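The 10 genes described here encode CDK11 (CDK11A and CDK11B), the L-type cyclins that partner it (CCNL1 and CCNL2), and kinases and cyclins that act on RNA polymerase II: CDK7, CDK9 with its cyclin gene CCNT1, and CDK12 and CDK13 with their cyclin gene CCNK. They were chosen by gene symbol from the 20344 genes listed in both deposited files, and all 10 were found. CDK11A and CDK11B are near-identical copies that lie close together on chromosome 1, so their values have to be read together.

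The study concerns propranolol, a blocker of beta-adrenergic receptors, and resistance to the BRAF inhibitor vemurafenib in melanoma; its title names CDK11 and the cell cycle. Messenger RNA was sequenced from A375, an established human melanoma line with mutant BRAF, and from cells called A375-VR. Of 3 samples, 2 were analysed, with 1 library each: the library titled A375-VR, Prop (here the A375-VR library) and the library titled A375, Prop (here the A375 library). The remaining sample carries the title A375-VR, DMSO and was not analysed here. The labels do not spell out VR or Prop, and they disagree with one another. The extraction protocol of every sample names A375-VR cells, given DMSO or propranolol at 20 µM for 24 h, while the title and cell line label of the A375 library name A375. A difference between the libraries can therefore be one of line or of treatment, which cannot be told apart, and with 1 library per group a difference in culture or in library handling cannot be told apart from these either. Neither library is titled as untreated, so no value below can be read as a comparison of cells with and without the drug. The labels do not say how A375-VR was derived or whether it is a clone.

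Cyclin-dependent kinases need a cyclin partner to be active. One branch of the family drives the cell cycle, while a transcriptional branch phosphorylates the tail of RNA polymerase II and the proteins that process new RNA. CDK7 acts at the start of transcription, CDK9 releases paused polymerase, CDK12 and CDK13 sustain elongation along long genes, and CDK11 acts on the splicing machinery. CDK7 also phosphorylates other CDKs, cell cycle kinases among them.

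Values are FPKM, a length- and depth-scaled abundance, as deposited. The library totals recovered from the values were 16438482 in the A375-VR library and 17811339 in the A375 library, and genes that reached 1 FPKM in either library (the filter used throughout) had a median of 751 and 730 recovered reads. No replicate exists, so no p-value is given. An interval after a ratio or level is a 95% interval from the recovered reads. It covers counting error only and, for a ratio between libraries, compares 2 libraries, not conditions. Levels of different genes, and ratios of them, also depend on the gene lengths behind the FPKM, which the intervals take as given. In bulk RNA, fewer cells that express a gene and less of its RNA per cell cannot be told apart. As a check of the tissue label, the neural crest factor gene SOX10 had 150 FPKM in the A375-VR library and 65.3 in the A375 library. S100B, another marker of the lineage, had 12.6 and 3.72 FPKM, while its master regulator gene MITF went the other way, with 3.47 and 6.47 FPKM. The pigment cell markers PMEL, MLANA, TYR, TYRP1 and DCT all lay under 1 FPKM in both. Leukocyte markers summed to 1.61 and 0.0595 FPKM, with PTPRC and CD3E at 0 in both. Fibroblast markers summed to 5.47 and 3.48, endothelial markers to 2.07 and 0.568, and keratinocyte markers to 3.52 and 2.88. The part of these markers in the results was not tested.

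Between the libraries the 10 genes differed little, and they did not move as a group. CDK11B was lower in the A375-VR library and CCNL2 higher, and these were the 2 largest differences among the genes. Smaller ones, in both directions, were seen in CDK7, CCNT1, CCNL1, CDK12 and CDK9. Of the 8 genes that reached 1 FPKM in a library, 4 had a log2(FPKM + 1) difference above 0 and 4 below 0 (A375-VR minus A375). Their median difference was -0.04, against 0.10 over all 10761 genes past the same filter. None was 2-fold apart, which here means a difference of at least 1 in size on that scale; of all genes past the filter, 3.14% lay at least 2-fold higher and 0.613% at least 2-fold lower in the A375-VR library. With so few genes called in all, a count of 0 among 8 is near this background. The median size of the difference was 0.18 for the 8 genes and 0.26 over all genes past the filter.

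**Figure D1:**
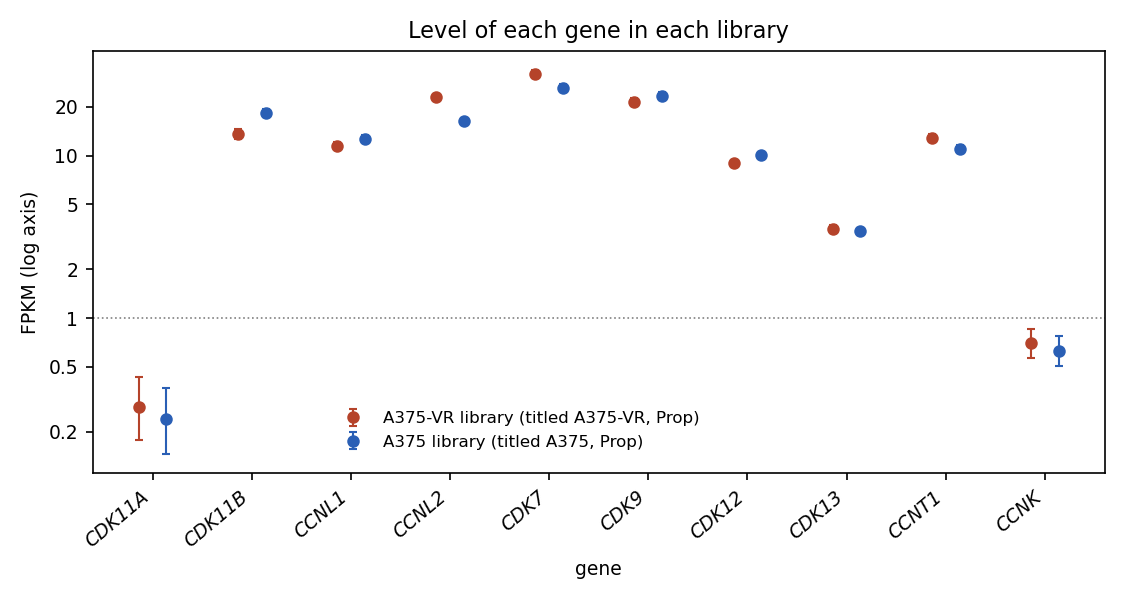
FPKM (log axis) of each of the 10 genes in the A375-VR library (left point of each pair) and the A375 library (right point), with 95% counting intervals as bars where they exceed the point; the dotted line marks 1 FPKM. CDK7 is the highest gene in both libraries, at 31.9 and 26.0 FPKM, and CDK11A and CCNK lie under 1 in both.

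CDK11B (Entrez 984) is a protein-coding gene on chromosome 1 at 1570601 to 1590473, minus strand of GRCh37. It encodes CDK11, a kinase with roles in splicing and in mitosis, whose substrate SF3B1 is a core protein of the U2 snRNP. CDK11B had 13.6 FPKM in the A375-VR library and 18.3 FPKM in the A375 library, from 777 and 1139 recovered reads. The A375-VR value was the lower of the pair, with a ratio of 0.739 (0.674 to 0.810). Its log2 difference of -0.41 lay at percentile 9.59 of all genes past the filter. Scaling by a trimmed mean of log ratios, which centres most genes on no change, gave a ratio of 0.682.

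CDK11A (Entrez 728642), the second copy, lies on chromosome 1 at 1633818 to 1655796, also on the minus strand. CDK11A had 0.285 FPKM in the A375-VR library and 0.239 in the A375 library, from only 22 and 20 recovered reads. Its ratio of 1.19 (0.621 to 2.30) was not detectably different from 1 at this depth. The reading of CDK11B was 47.6 times that of CDK11A in the A375-VR library (31.2 to 76.4) and 76.8 times in the A375 library (49.5 to 126). Whether this gap belongs to the cells or to the assignment of reads cannot be told from gene totals.

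The copies were compared in the GRCh37 reference to show how far reads could be told apart. Along the canonical CDK11B transcript of GENCODE release 44, 1401 of 2562 windows of 150 bases, the read length, were identical to a stretch of a CDK11A transcript (54.7%). Of the 2835 windows of the canonical CDK11A transcript, 72.7% were identical to a stretch of another gene's transcript, most often of ENSG00000268575 (55.0%), an annotated gene whose exons cover 48.1% of the CDK11A exon bases on the same strand. For the other 8 genes no window was found in a transcript of another gene. Reverse complements were not searched, so overlap with a gene on the opposite strand, as described for CCNK below, would not appear here. In the coding sequence 2060 of 2079 aligned bases were the same (99.1%). The CDK11B model is carried over to this build only in part: its coding sequence has 2079 bases, against 2340 in CDK11A, and the 261 further CDK11A bases have no aligned partner. A window shared by both copies is shown first, since a read from it fits both genes equally. It lies at chr1:1577032-1577181 in CDK11B (coding exon 6 of the canonical transcript) and at chr1:1640242-1640391 in CDK11A (coding exon 8), and is written 5′ to 3′ on the minus strand with no base that differs.
CDK11B and CDK11A: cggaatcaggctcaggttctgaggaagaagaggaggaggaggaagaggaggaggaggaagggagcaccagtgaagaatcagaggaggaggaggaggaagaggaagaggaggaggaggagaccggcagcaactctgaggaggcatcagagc

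The other stretch shown is the 60 coding bases, within 1 exon of each gene, in which the copies differ most. It lies at chr1:1571784-1571843 in CDK11B (coding exon 15) and chr1:1635004-1635063 in CDK11A (coding exon 17), again 5′ to 3′ on the minus strand. The 5 bases that differ are in capitals.
CDK11B: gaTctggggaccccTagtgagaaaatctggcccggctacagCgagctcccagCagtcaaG
CDK11A: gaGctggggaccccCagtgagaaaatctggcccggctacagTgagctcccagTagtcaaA

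**Figure D2:**
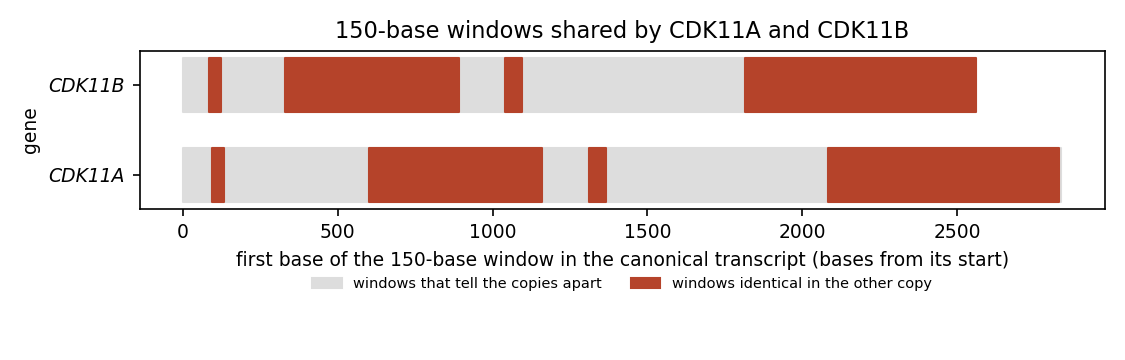
Windows of 150 bases along the canonical transcripts of CDK11B and CDK11A (x axis, first base of the window in bases from the transcript start), coloured where the window is identical in a transcript of the other copy and grey where it is not. Identical windows make up 54.7% of the CDK11B transcript and fall into 4 blocks in each gene.

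How the authors' counting treated reads that fit both copies is not given in the sources used here; its part in either value was not tested. Summed, they had 13.8 FPKM in the A375-VR library and 18.6 in the A375 library, a ratio of 0.745. With the 799 and 1159 reads of both genes added, the interval was 0.682 to 0.818. CDK11A made up only 2.06% of the summed FPKM in the A375-VR library and 1.29% in the A375 library, so the sum is nearly CDK11B alone and does not bear on how reads were assigned. The sum does not include ENSG00000268575. The same duplicated stretch of chromosome 1 holds SLC35E2A and SLC35E2B, copies of a gene of the nucleotide sugar transporter family. GENCODE lists SLC35E2B as protein-coding and SLC35E2A as a transcribed pseudogene. SLC35E2B had 4.36 and 2.59 FPKM, a ratio of 1.68 (1.48 to 1.92) opposite in direction to CDK11B. SLC35E2A had 1.93 and 1.09 FPKM. All 732 exon bases of its GENCODE model overlap another gene, but the length recovered from the FPKM is 7713. The counted model therefore differed, and its overlap is not known. Of the other neighbours, the ubiquitin ligase gene MIB2 had a ratio of 1.498 (1.34 to 1.68) and NADK, which makes NADP, of 0.872 (0.804 to 0.945). The neighbours of CDK11B thus lay on both sides of 1.

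The cyclin partners of CDK11 differed in opposite directions. CCNL2 (Entrez 81669; chromosome 1 at 1321091 to 1334715, minus strand), which encodes cyclin L2, had 23.0 FPKM in the A375-VR library and 16.4 in the A375 library. From 2592 and 1996 recovered reads the ratio was 1.41 (1.33 to 1.49), and 1.298 with the trimmed mean. Its log2 difference of 0.47 lay at percentile 83.0 of all genes past the filter. CCNL1 (Entrez 57018; chromosome 3 at 156864297 to 156878549, minus strand), which encodes cyclin L1, had 11.5 and 12.7 FPKM. Its ratio was 0.901 (0.844 to 0.963), and 0.831 with the trimmed mean. By FPKM, the CCNL2 level was therefore 2.00 times that of CCNL1 in the A375-VR library (1.88 to 2.13) and 1.28 times in the A375 library (1.21 to 1.37). Library scaling cancels in this ratio, but gene length does not. The recovered lengths were 6850 bases for CCNL2 and 8729 for CCNL1, against canonical transcripts of 3112 and 2322 bases. Which gene is the higher can therefore depend on the length used. A length common to both libraries leaves the ratio higher in the A375-VR library. Summed, the cyclin L genes had 34.5 and 29.1 FPKM. Set against the kinase, CDK11B stood at 0.589 times the CCNL2 level in the A375-VR library (0.543 to 0.638) and at 1.12 times in the A375 library (1.04 to 1.21). Against CCNL1 it stood at 1.18 times (1.08 to 1.29) and 1.44 times (1.34 to 1.55). Transcripts of cyclin L genes are known to be spliced into several forms, and gene totals do not separate coding from noncoding forms.

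CDK7 (Entrez 1022; chromosome 5 at 68530622 to 68573257, plus strand) encodes the kinase of TFIIH, a factor that opens promoters. Its FPKM was the highest of the 10 genes, at 31.9 in the A375-VR library and 26.0 in the A375 library. The ratio was 1.22 (1.13 to 1.33). With the trimmed mean the ratio was 1.13. Its cyclin gene CCNH was not a member and went the other way, with 11.1 and 12.9 FPKM and a ratio of 0.859 (0.793 to 0.930). CDK7 thus stood at 2.88 times CCNH in the A375-VR library (2.66 to 3.13) and 2.02 times in the A375 library (1.87 to 2.19).

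CDK9 (Entrez 1025; chromosome 9 at 130547958 to 130553071, plus strand) and CCNT1 (Entrez 904; chromosome 12 at 49082241 to 49110781, minus strand) encode the kinase and the cyclin of P-TEFb, the factor that releases paused polymerase. CDK9 had 21.4 and 23.3 FPKM in the A375-VR and A375 libraries, a ratio of 0.920 whose interval ended just under 1 (0.847 to 0.999). CCNT1 had 12.9 and 10.99 FPKM, a ratio of 1.17 (1.09 to 1.26), and 1.08 with the trimmed mean. The kinase reading was 1.66 times that of the cyclin in the A375-VR library (1.54 to 1.80) and 2.12 times in the A375 library (1.96 to 2.29).

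CDK12 and CDK13 encode large, related kinases that both bind cyclin K; CDK12 is known for sustaining the expression of long DNA repair genes. CDK12 (Entrez 51755; chromosome 17 at 37617739 to 37723812, plus strand) had 8.96 FPKM in the A375-VR library and 10.1 in the A375 library, a ratio of 0.886 (0.833 to 0.942). CDK13 (Entrez 8621; chromosome 7 at 39989720 to 40139179, plus strand) had 3.53 and 3.42 FPKM. Its ratio of 1.03 (0.961 to 1.11) was not detectably different from 1, and it fell on the other side of 1 with the trimmed mean, at 0.953. The CDK12 level was 2.54 times that of CDK13 in the A375-VR library (2.37 to 2.72) and 2.96 times in the A375 library (2.77 to 3.16).

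CCNK (Entrez 8812; chromosome 14 at 99947506 to 100001381, plus strand), which encodes cyclin K, had 0.703 FPKM in the A375-VR library and 0.628 in the A375 library. These readings rest on 95 and 92 recovered reads, and the ratio of 1.12 (0.831 to 1.51) was not detectably different from 1. Cyclin K thus read far below the kinases it serves. Of its 8220 exon bases, 59.5% overlap exons of CCDC85C on the opposite strand, and the gene length recovered from the FPKM is also 8220, so the shared bases were counted in the length. The library kit keeps the strand, but whether counting used it, or dropped reads that fit 2 genes, is not stated in those sources. The part of this overlap in the CCNK reading was not tested. Over the files, 76.9% of 731 protein-coding genes with at least 50% of their exon bases overlapped by another gene read under 1 FPKM in both libraries, against 49.5% of 9983 genes with no overlap. These shares pool overlap on the same and the opposite strand, while that of CCNK is all on the opposite strand. They therefore do not bear on CCNK by itself. In the lists below, NELFCD has 97.4% of its exon bases overlapped and HEXIM2 79.3%, all on the opposite strand. NELFCD had 32.1 and 35.6 FPKM in the A375-VR and A375 libraries, and HEXIM2 1.01 and 1.32. They were picked with their values known. CCDC85C itself had 0.676 FPKM in the A375-VR library and 1.46 in the A375 library; it was singled out once its values were known.

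**Figure D3:**
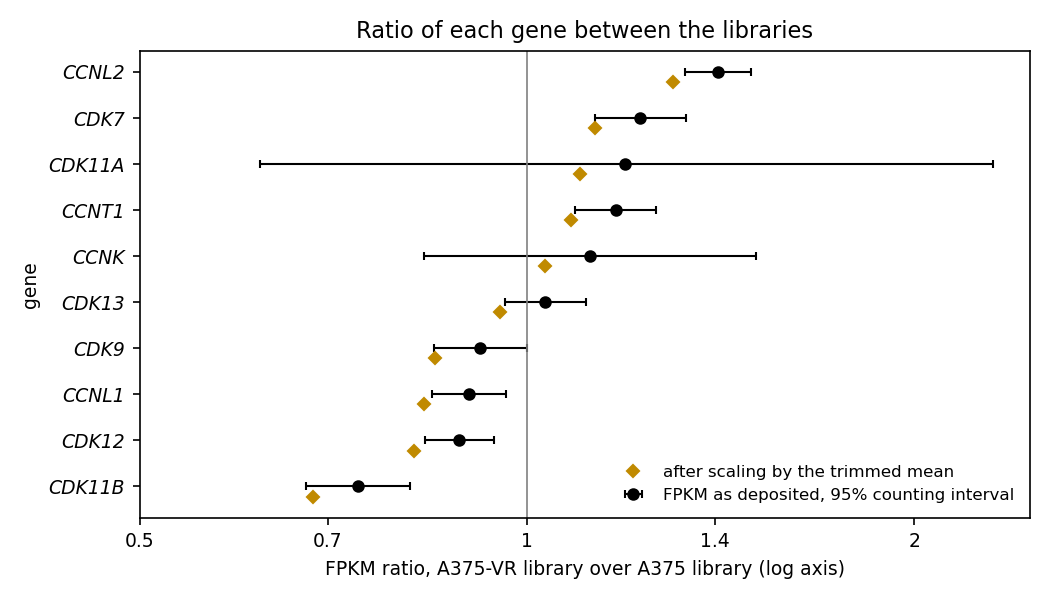
Ratio of FPKM, A375-VR library over A375 library (log axis), for each gene, with 95% counting intervals as bars (black points) and the ratio after scaling by the trimmed mean (diamonds). CCNL2, CDK7 and CCNT1 lie above 1 and CDK11B, CDK12, CCNL1 and CDK9 below it with both scalings, while the intervals of CDK11A, CCNK and CDK13 include 1.

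The order of the levels by FPKM changed in the middle of the range only. Gene lengths enter this order. The recovered lengths exceed the canonical transcripts unequally, at 8729 against 2322 bases for CCNL1 and 2416 against 1426 for CDK7. Counting intervals do not cover this, so other lengths could give another order. In the A375-VR library the order was CDK7, CCNL2, CDK9, CDK11B, CCNT1, CCNL1, CDK12, CDK13, CCNK and CDK11A. Of these neighbours, CCNL2 and CDK9 had overlapping counting intervals, and so had CDK11B and CCNT1. In the A375 library the order was CDK7, CDK9, CDK11B, CCNL2, CCNL1, CCNT1, CDK12, CDK13, CCNK and CDK11A. There the overlapping neighbours were CDK7 with CDK9 and CCNT1 with CDK12. CCNL2 thus stood at rank 2 in the A375-VR library and rank 4 in the A375 library, and CDK11B at ranks 4 and 3. Among genes past the filter, CDK7 stood at percentile 85.6 of the level in the A375-VR library and 82.0 in the A375 library, and CDK13 at 26.0 and 28.8.

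Genes that work with the 10 were described from lists, with counts past the filter and the median difference, to be read against 0.10 over all genes. Across these lists 111 further genes were in the files and 101 passed the filter; 38 of them had a difference above 0 and 63 below, with a median of -0.09. None was 2-fold apart with the pseudocount of 1, though the plain ratios of ATM and CCNE2, given below, were past 2-fold, and with a pseudocount of 0.1 both were called (1 higher and 1 lower). CCNE2 was also called after rescaling to a common sum. Over all genes past the filter, 6493 lay above 0 and 4268 below. Both the lists and the 10 genes were drawn up with earlier results of these data known, so the counts are a description.

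Known partners and substrates of CDK11 were mostly lower in the A375-VR library, in 11 of 13 genes, with a median of -0.22 and -0.33 with the trimmed mean. HSP90AA1, the chaperone that stabilises CDK11 and many other kinases, had 688 and 1102 FPKM, a ratio of 0.624 (0.618 to 0.630). The splicing factor genes SRSF7 and RNPS1, whose proteins bind CDK11, had ratios of 0.656 (0.632 to 0.680) and 0.682 (0.654 to 0.711). The kinase co-chaperone gene CDC37 had a ratio of 0.793 (0.772 to 0.814). SF3B1, the CDK11 substrate named above, had 43.8 and 48.2 FPKM. The list of kinases of SR proteins, other enzymes that act on splicing factors, was split evenly, with 4 of 8 genes above 0 and a median of -0.02. Within it SRPK2 had a ratio of 1.24 (1.14 to 1.34) and CLK1 of 0.850 (0.747 to 0.968).

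The list of P-TEFb and its regulators, which includes CDK9 and CCNT1, went both ways, with 8 of 16 genes above 0 and a median of -0.01. MLLT3, a subunit of the super elongation complex, had 3.91 and 2.00 FPKM, a ratio of 1.95 (1.69 to 2.26). AFF4, the scaffold of that complex, had a ratio of 1.35 (1.26 to 1.43), and its elongation factor ELL2 of 0.703 (0.641 to 0.770). In the list of TFIIH and its kinase subcomplex, CDK7 included, 7 of 9 genes were below 0, with a median of -0.14. GTF2H2, a core subunit with 1.26 and 1.98 FPKM, has near-identical copies in its own duplicated region and is uncertain. In the kinase module of Mediator, which links activators to polymerase, 5 of 6 genes were above 0 with a median of 0.17. CDK19, the paralog of CDK8, had 2.91 and 1.63 FPKM, a ratio of 1.78 (1.499 to 2.12), and MED12 of 1.36 (1.28 to 1.44).

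Genes of polymerase pausing and elongation were below 0 in 12 of 16, with a median of -0.19 and -0.30 with the trimmed mean. SSRP1 and SUPT16H, which form the histone chaperone FACT, had ratios of 0.638 (0.620 to 0.657) and 0.783 (0.756 to 0.812). POLR2A, the largest subunit of polymerase and bearer of the tail that these kinases modify, had 21.5 and 28.4 FPKM, a ratio of 0.757 (0.722 to 0.793). Phosphatases of that tail and their scaffolds had 5 of 8 genes above 0 and a median of 0.03 (-0.07 with the trimmed mean). CTDSPL had a ratio of 0.613 (0.538 to 0.698) and CTDSP2 of 1.301 (1.23 to 1.38).

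DNA repair genes known to depend on CDK12 had 5 of 8 below 0 and a median of -0.29. FANCI had 12.7 and 20.3 FPKM, a ratio of 0.625 (0.599 to 0.653), and BRCA1 of 0.744 (0.709 to 0.780). ATM, a very long gene, went the other way with 2.67 and 1.26 FPKM, a ratio of 2.13 (1.95 to 2.32). Short-lived transcripts that CDK9 inhibitors deplete had 2 of 3 above 0. Of these the survival gene MCL1 had 125 and 88.8 FPKM, a ratio of 1.404 (1.37 to 1.43), and MYC had a ratio of 0.935 (0.847 to 1.03).

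Beside these, the cell cycle branch of the family was lower in the A375-VR library, with 10 of 11 CDK and cyclin genes below 0 and a median of -0.37. The S phase cyclin genes CCNE2 and CCNA2 had ratios of 0.440 (0.358 to 0.539) and 0.563 (0.530 to 0.598), and the mitotic kinase gene CDK1 of 0.653 (0.618 to 0.689). CDK11B, with its difference of -0.41, lay near the median of that list, and the other 7 transcriptional genes past the filter lay above it. The remaining CDKs had 4 of 6 above 0 and a median of 0.14, with CDK5 at a ratio of 1.48 (1.33 to 1.64). Some list members read under 1 FPKM in both libraries, among them SUPT4H1 and ELL3, which are listed at 0 in both. SUPT4H1, which encodes a subunit of the elongation factor DSIF, is in general use by cells, so its 0 is given only as listed; other genes overlap 89.9% of its exon bases.

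**Figure D4:**
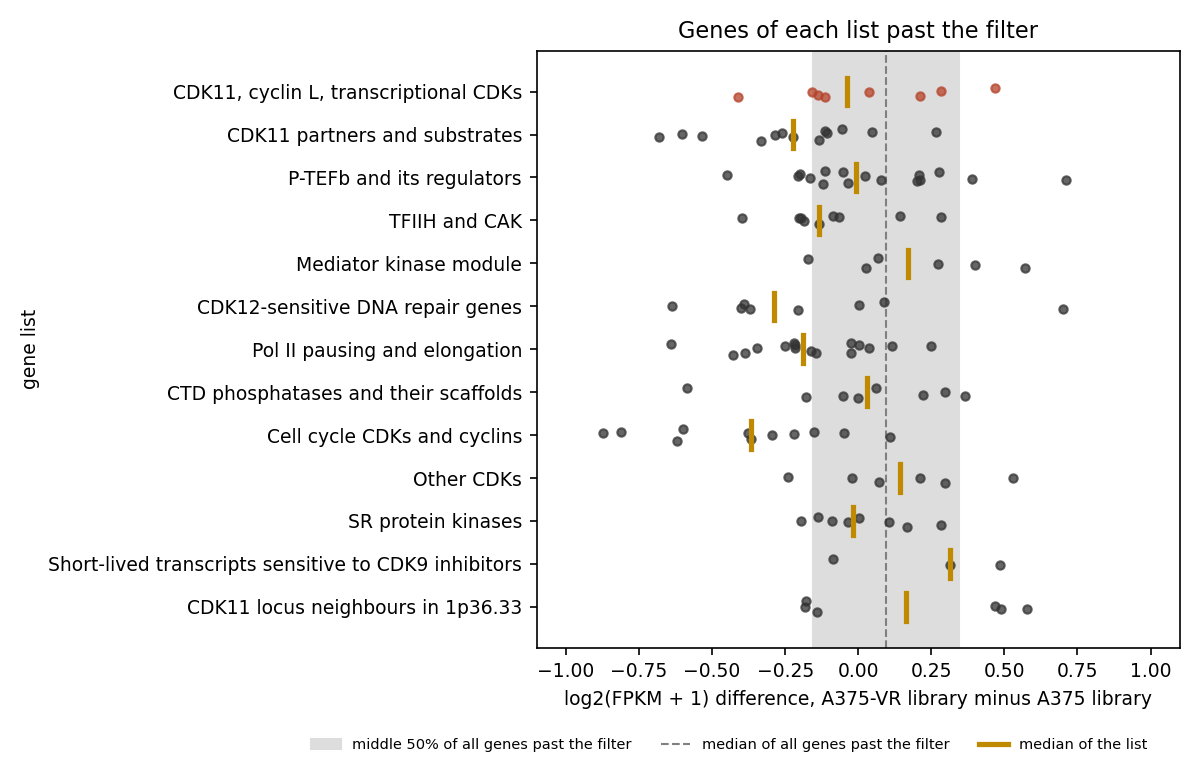
Difference in log2(FPKM + 1), A375-VR library minus A375 library, for each gene past the filter in each list (points), with the median of the list (vertical bar), the median of all genes past the filter (dashed line) and their middle 50% (grey band, -0.16 to 0.35). The 8 transcriptional CDK and cyclin genes run from -0.41 to 0.47 on both sides of the line, and the medians of the cell cycle, DNA repair, elongation and CDK11 partner lists lie to the left of the band.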

How the data were processed

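Per the series design text, the kit was Illumina's stranded TruSeq mRNA kit, reads were paired (150 bp, HiSeq 2000), and TopHat 1.3.3 placed them on GRCh37. How genes were counted, with which annotation, filters and strand setting, is not given in the sources used here. FPKM were deposited by the authors, as 1 value per gene and library, with zeros kept.

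Differences are log2(FPKM + 1), A375-VR minus A375, over genes that reached 1 FPKM in either library; ratios are of plain FPKM. With 1 library per group no test was possible.

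Whole reads were recovered from the steps in the FPKM values. Genes with equal reads give the ratio of the totals, and the common factor was the one of 12 multiples under which most recovered lengths equalled GENCODE release 44 exon lengths (15.2% of 3000 genes, against 10.5% for the next). A gene's reads are the multiple, up to 6, whose length is nearest the reference, so true reads can be other multiples. Intervals are exact Clopper-Pearson (ratios) and exact Poisson (levels). These steps were tried on simulated data in which every gene length equalled the reference. In the deposited data 19.0% of recovered lengths equalled it and 64.9% lay within 2%. The trial therefore does not check the totals or multiples where lengths differ from the reference.

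The 10 genes and the lists were chosen with earlier results of these data known. All 10 are named, with up to 4 genes per list by size of difference, and any marker or locus neighbour. SF3B1, CCDC85C, NELFCD, HEXIM2 and 2 genes listed at 0 are named outside that rule. Some genes of the lists are not reported here. Alternatives were a pseudocount of 0.1, no filter or FPKM 5, and 3 scalings (common sum, median ratio, and a mean of log ratios trimmed by 30% in ratio and 5% in level at each end). Python 3.11.15, scipy 1.17.1 and pandas 2.3.3 were used.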

Additional observations from a re-analysis of the deposited data

How the results depend on the processing

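The 10 genes had no 2-fold call under any pseudocount, filter or scaling tried, and the ratio of the summed CDK11 genes and the CCNL2 to CCNL1 ratios moved by less than their counting intervals. Over all genes, the counts of 2-fold calls moved. They were 338 higher and 66 lower in the A375-VR library as reported, 689 and 140 with a pseudocount of 0.1, and 624 and 104 after rescaling to a common sum; both make the pseudocount smaller relative to the values. The median ratio gave 273 higher and 101 lower, and the trimmed mean 272 higher and 101 lower. Both scalings divide the A375-VR values by 1.08, so that the median over all genes became 0.00 in place of 0.10. CDK13 changed side of 1 with them, and no other member did. Intervals taken from the smallest whole reads, an alternative added after seeing the data, were wider for CCNL2 (1.29 to 1.53) and CDK7 (1.09 to 1.37) and included 1 for the same genes. No paired analysis was possible because each group has 1 library. Leaving out a library was not possible either. Depth limits CDK11A and CCNK most.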
